A study of Mus musculus with 2 samples.

Results

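FGF2 cluster 7 is a group of stromal cells in mouse salivary gland organoids grown with FGF2, a fibroblast growth factor, and it was led by the secreted protein genes Igfbp5, Il11 and Slpi. It was described through the 309 genes that the authors' deposited table lists for it, of 3058 genes listed for any of the 17 clusters of the FGF2 library. Of these, 177 were listed higher in cluster 7 than in all other FGF2 cells and 132 lower. Cluster 7 made up 6.05% of the FGF2 cells, a part recovered from the listed shares. The members were chosen by the cluster label alone, but the cluster itself was built from the expression of these genes. All differences from the other cells are therefore descriptions and were not tested.

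The study profiled single cells of organoid stroma from salivary glands of CD-1 mice, an outbred stock, taken at embryonic day 16, with a further 7 added in the age label. Organoids are cell aggregates that rebuild parts of a tissue in culture, and stroma is the connective tissue part. There was 1 library of organoids with FGF2 (10107 cells captured) and 1 control library without it (5023 cells captured), with no replicate of either. The dose and timing of FGF2, the meaning of the added 7 and the number of animals are not stated in the labels.

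IL-11 is a cytokine of the interleukin 6 family that signals through the shared receptor gp130 and is known from activated fibroblasts. IGFBP5 binds insulin-like growth factors and is deposited in the matrix around cells. SLPI inhibits neutrophil elastase and related serine proteases and is secreted at mucosal surfaces. Fibroblasts of a gland make its matrix and supply growth factors to the epithelium, and FGF2 acts on them through receptor tyrosine kinases and the ERK pathway.

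The promoters of these leading genes are shown because the genes head the same cluster. They were taken from RefSeq on build GRCm38.p6 and run from 250 bases before to 50 bases after a transcription start. Igfbp5 lies on chromosome 1 (72858065 to 72874865), Il11 on chromosome 7 (4772373 to 4782907) and Slpi on chromosome 2 (164354070 to 164356507), and the windows are on the minus strand at chr1:72874816-72875115, chr7:4778092-4778391 and chr2:164356458-164356757. Capitals mark matches, on either strand, to 4 motifs: AP-1 (TGANTCA), CRE (TGACGTCA), the NR4A site NBRE (AAAGGTCA) and C/EBP (TTGCNNAA).
Igfbp5: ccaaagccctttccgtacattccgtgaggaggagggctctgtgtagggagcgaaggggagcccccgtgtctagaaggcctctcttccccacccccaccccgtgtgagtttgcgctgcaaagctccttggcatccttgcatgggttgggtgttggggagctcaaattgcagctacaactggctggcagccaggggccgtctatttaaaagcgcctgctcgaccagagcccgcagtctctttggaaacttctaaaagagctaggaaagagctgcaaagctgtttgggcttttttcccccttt
Il11: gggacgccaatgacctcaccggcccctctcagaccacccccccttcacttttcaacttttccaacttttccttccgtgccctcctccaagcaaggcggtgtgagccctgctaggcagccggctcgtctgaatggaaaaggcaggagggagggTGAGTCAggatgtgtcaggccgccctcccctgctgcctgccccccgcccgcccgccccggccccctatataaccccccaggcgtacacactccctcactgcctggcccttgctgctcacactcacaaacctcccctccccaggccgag
Slpi: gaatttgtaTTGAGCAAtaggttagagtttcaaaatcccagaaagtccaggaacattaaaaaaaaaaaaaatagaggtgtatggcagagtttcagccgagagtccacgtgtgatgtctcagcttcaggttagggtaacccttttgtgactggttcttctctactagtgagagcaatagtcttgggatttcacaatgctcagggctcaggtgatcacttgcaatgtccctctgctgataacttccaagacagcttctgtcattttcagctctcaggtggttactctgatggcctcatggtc
The Il11 window held 1 AP-1 match, TGAGTCA, which began 98 bases before the start, and the Slpi window held 1 C/EBP match, 241 bases before it. No letters of the 4 motifs were found in the Igfbp5 window or in that of the upstream Il11 start. AP-1 letters occurred in 7.81% of all 32851 promoters, in 2.69% of the 186 promoters of genes higher in cluster 7 and in 13.1% of the 122 promoters of genes lower there. C/EBP letters occurred in 10.8%, 8.60% and 9.84% of them, CRE letters in 1.79%, 3.23% and 4.10%, and NBRE letters in 1.51%, 0.538% and 1.64%. Of the listed genes, 135 of 177 higher and 92 of 132 lower ones had a promoter. A match is a description of letters and not a binding site.

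Shares and folds below are those of the authors' deposited table unless a sentence says that they were recovered. A share is the percentage of cells of a group with a value above 0 for the gene. Every entry of the FGF2 library had a share of at least 25.1% in the cluster or in the other cells. A gene rarer than that in the other cells was therefore listed only through its share in the cluster. A missing entry does not show absence. A fold is the average in cluster 7 over that in the other FGF2 cells, with 1 added to both averages, so low genes show smaller folds than their averages alone would give. The level over the library is a recovered ratio of the same averages, cluster over all FGF2 cells, and it can be set side by side between clusters. The counts behind the shares were not used here and the depth per cell is unknown, so no interval is given.

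Stromal markers were found in cluster 7. Of 11 stromal fibroblast markers, all in the FGF2 table, 5 were listed higher in cluster 7, 1 lower and 5 not at all. The 5 were Twist2, Dcn, Thy1, Pdgfrb and Prrx1. Prrx1, a mesenchymal transcription factor, was found in 99.8% of cluster 7 and 94.1% of the other cells, and Thy1, a surface glycoprotein of fibroblasts, in 97.9% and 84.5%. The lower marker was Vim, the intermediate filament of mesenchymal cells, whose share was 96.2% against 95.3% while its average was 2.70 times lower. Pdgfra, the receptor that marks fibroblasts, was not listed for cluster 7, and its recovered share pooled over the 12 clusters without an entry, cluster 7 among them, was 88.3%.

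The fixed markers of other cell types were not among the higher genes. None of the markers of epithelium (6 in the FGF2 table), macrophages (2), mast cells (5), Schwann or glial cells (5) and cycling cells (5) was listed for cluster 7, and no endothelial marker was in the FGF2 table. Pooled over the clusters without an entry, which include cluster 7, the recovered share was 2.50% for Epcam, 0.30% for Ptprc, 0.26% for Sox10 and 2.60% for Mki67. These shares were low but are averages over many clusters, and cluster 7 alone could not be read from them. Given the smallest listed share of 25.1%, such rare markers would have an entry only if about that part of cluster 7 held them. Their missing entries are thus no evidence of absence. S100a8, a neutrophil gene, was found in 25.4% of cluster 7 and 12.8% of the other cells, but its average was listed 1.66 times lower. The recovered level of S100a8 in cluster 14, the cluster with the highest shares of Ptprc, Lyz2 and S100a9, was 68.2 times that of the library, against 0.616 in cluster 7 and 0.556 pooled over the 15 clusters without an entry.

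The list as a whole was one of graded differences. The authors' correction of p-values multiplied them by 20056, read here as the number of genes in the library. How many genes were tested for cluster 7 is not known. Of the 20056, 0.883% were listed higher in cluster 7 and 0.658% lower, which is 5.79% and 4.32% of the 3058 genes listed for any cluster. The last percentages, 5.79% and 4.32%, are the background for each count of list members below. No list was tested. Higher genes had a median share of 82.1% in cluster 7 and 54.7% in the other cells, and lower genes 63.0% and 70.8%. The median fold was 1.45 upward and 1.40 downward. Only 23 higher and 6 lower genes reached 2-fold. None of the 177 higher genes had a lower share in cluster 7, and 1, Spp1, had equal shares. In contrast, 45 of the 132 lower genes had the larger share in cluster 7, and 28 of those were found in at least 90% of the other cells. Gas5, a non-coding RNA, shows this pattern, with 99.8% against 96.3% of the cells and an average 1.32 times lower. The depth of the clusters is unknown, and its part in this pattern was not tested. None of the 11 mitochondrially encoded genes of the FGF2 table was listed for cluster 7.

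**Figure D1:**
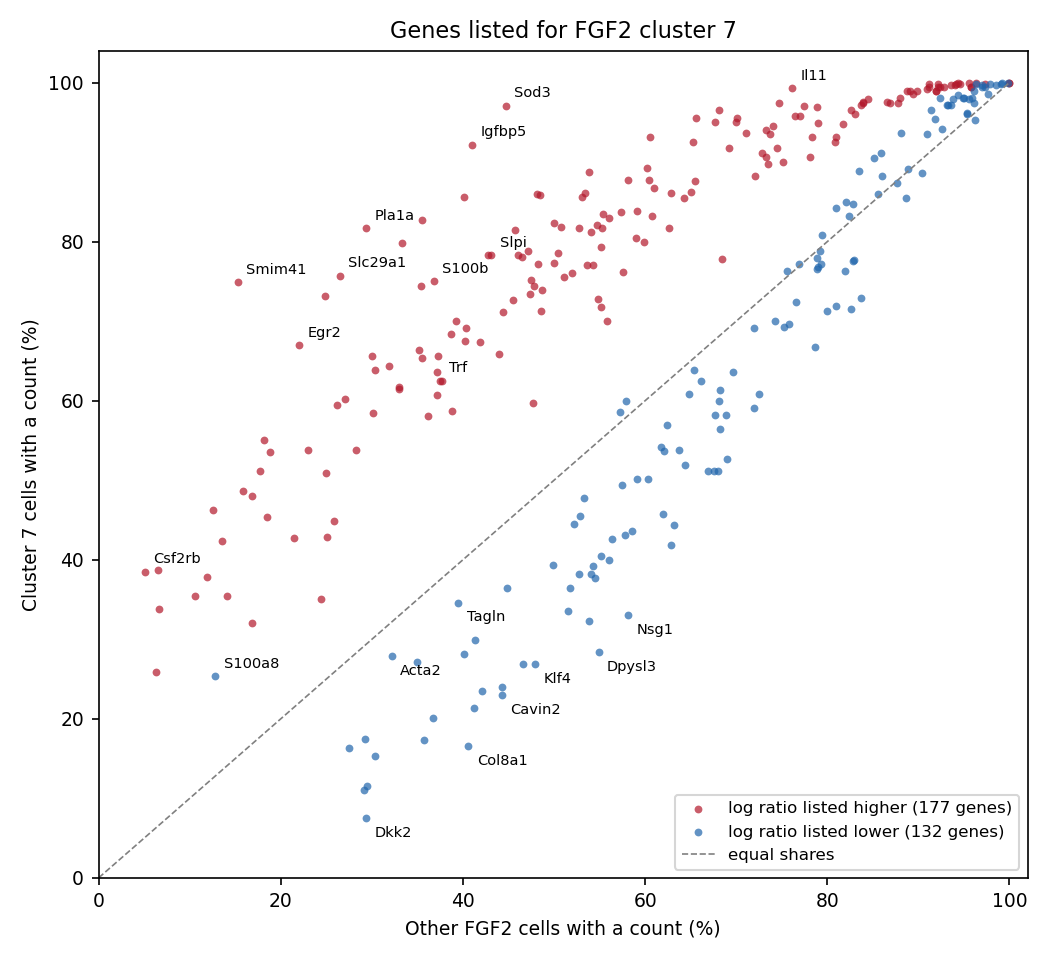
Share of cells with a count in cluster 7 (vertical axis, %) against that in the other FGF2 cells (horizontal axis, %) for the 309 listed genes, 1 point per gene, coloured by the sign of the log ratio, with a dashed line at equal shares. The 177 higher genes lie on or above the line, while 45 of the 132 lower genes also lie above it, mostly where both shares are near 100%.

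Igfbp5 set cluster 7 and cluster 5 apart from the other stromal cells. In the authors' deposited table it was found in 92.2% of cluster 7 and 41.0% of the other FGF2 cells, 6.49-fold higher. Cluster 5 (86.6%) and the epithelial-like cluster 11 (70.1%) were the only other clusters listed higher. Among the other stromal clusters, 9 (40.6%), 8 (36.8%), 4 (36.5%), 3 (34.9%), 2 (30.5%), 6 (29.6%) and 0 (24.2%) were listed lower. The recovered level over the library was 4.87 in cluster 7, 3.57 in cluster 5, 1.96 in cluster 11 and 0.173 in cluster 0, the lowest. Clusters 1, 12 and 14 had no entry and a pooled share of 58.7%.

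Il11 was a broad gene of the FGF2 library that was strongest in cluster 7. In the authors' deposited table it was found in 99.3% of cluster 7, 96.4% of cluster 1, 81.5% of cluster 6, 81.4% of cluster 4, 77.7% of cluster 9, 76.1% of cluster 0 and 56.6% of cluster 2. Clusters 3, 5, 8, 12 and 14 had no entry and a pooled share of 85.3%. The shares of clusters 7 and 1 lay close together, but the levels did not. The recovered level over the library was 4.28 in cluster 7 and 1.69 in cluster 1, a ratio of 2.53, and 0.305 in cluster 2. Shares and levels did not give the same order, since cluster 6 had a level of 0.452 and cluster 4 one of 0.672 at nearly equal shares.

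Slpi had the lowest share of the leading genes within cluster 7. In the authors' deposited table it was found in 78.3% of cluster 7 and 43.1% of the other cells, 3.72-fold higher. Clusters 1 (59.1%) and 5 (58.8%) were also listed higher and did not stand apart from each other by share. Clusters 3 (37.2%), 0 (30.7%) and 2 (27.9%) were lower. The recovered level was 3.20 in cluster 7, 2.22 in cluster 5 and 1.62 in cluster 1. Cluster 7 was thus the one cluster in which all of Igfbp5, Il11 and Slpi were listed higher. In the mast cell-like cluster 15, Igfbp5, Il11 and Slpi were found in 17.2%, 21.9% and 15.6% of cells. The glial-like cluster 16 had shares of 19.4%, 19.4% and 16.1%. The source of these shares was not tested.

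**Figure D2:**
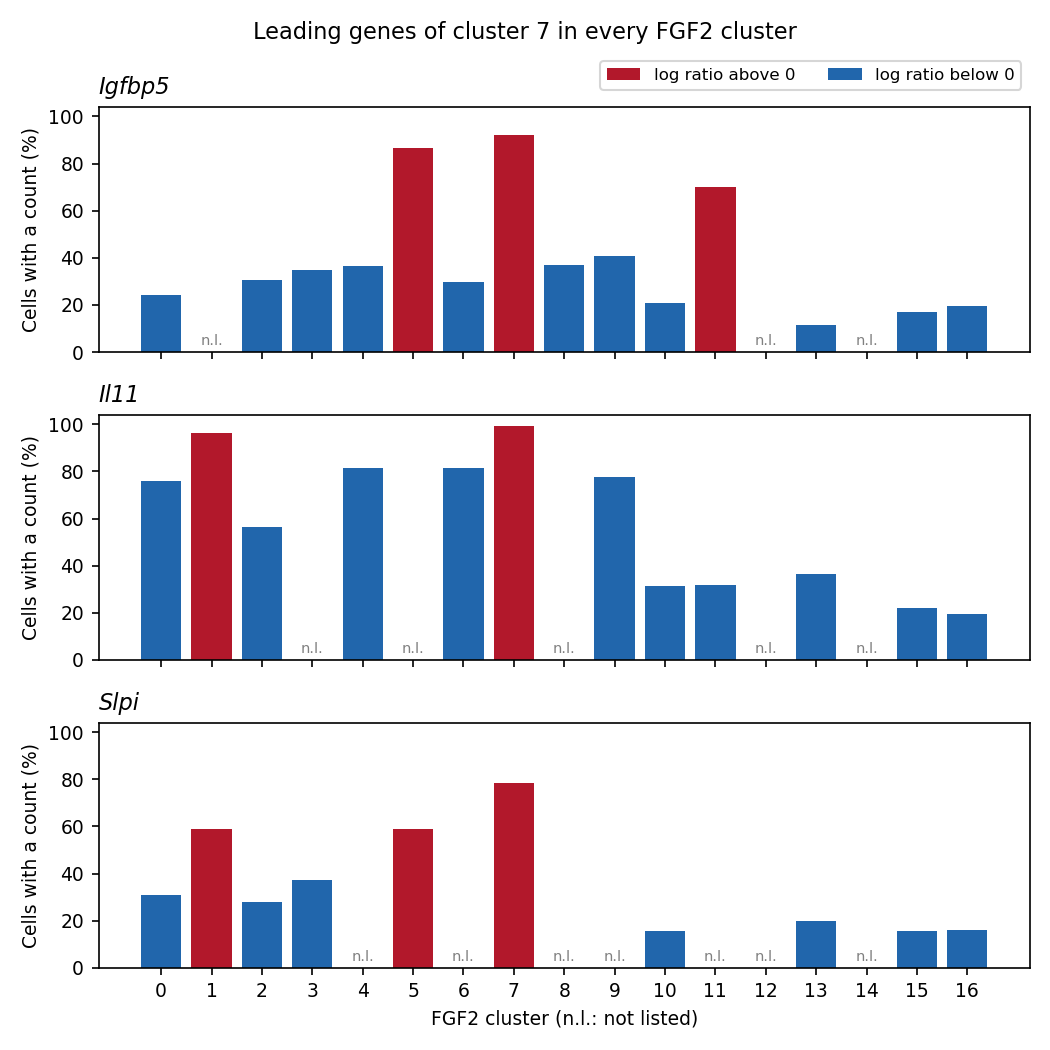
Share of cells with a count (vertical axis, %) of Igfbp5, Il11 and Slpi in each of the 17 FGF2 clusters, with 1 bar per cluster coloured by the sign of the log ratio, and n.l. where a cluster has no entry. Cluster 7 has the tallest bar in all panels, at 92.2%, 99.3% and 78.3%.

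The next genes by fold were Cck, Trf, Timp1, Sod3, Stc1, Slc29a1 and Ptgs2. Cck, a peptide hormone gene, was found in 97.6% of cluster 7 and 83.9% of the other cells (3.63-fold), and Trf, the iron carrier transferrin, in 62.5% and 37.5% (3.63-fold). Timp1, an inhibitor of matrix metalloproteinases, was found in nearly every cell of both groups (99.8% and 92.2%) and differed in average, 3.47-fold. Sod3, the extracellular superoxide dismutase, separated the cells better, with 97.1% against 44.7% (3.34-fold). Stc1, a secreted glycoprotein hormone, Pi15, a secreted protein of the CAP family, and Pla1a, a phospholipase, followed at 3.29-fold, 3.02-fold and 2.50-fold. Slc29a1, a nucleoside transporter, was the transporter gene among them (75.7% and 26.5%, 3.19-fold). By difference of shares Smim41, a small membrane protein gene, was first, with 74.9% against 15.3%.

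Genes of the insulin-like growth factor axis had 11 members in the FGF2 table, 4 of them higher in cluster 7 and 1 lower. Besides Igfbp5 and Stc1, which is linked to this axis through the protease PAPP-A, Igf1r, the receptor of IGF1, was found in 95.8% against 76.4% of the cells (1.68-fold). Igf1r was listed higher in no other FGF2 cluster. Igfbp7 was 1.36-fold higher, and Igf2, a ligand, was 1.53 times lower (77.7% and 82.9%). Igfbp3, Igfbp4 and Igfbp6 had no entry for cluster 7. The list thus held both a receptor and a binding protein that were higher and a ligand that was lower.

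Prostaglandins are lipid mediators made from arachidonic acid, which phospholipase A2 releases and cyclooxygenases convert. Of 7 listed symbols in the FGF2 table, 4 were higher and 1 lower in cluster 7. Prkar2b, 1 of the remaining symbols, encodes a subunit of protein kinase A and is no prostaglandin gene. Ptgs2, the inducible cyclooxygenase, was found in 95.1% of cluster 7 and 70.0% of the other cells (3.18-fold). Its recovered level over the library was 2.81 in cluster 7 and 1.46 in cluster 5, the 1 other cluster listed higher. Pla2g4a, the cytosolic phospholipase, was found in 96.1% and 83.0% (1.73-fold), and Ptgs1, the constitutive cyclooxygenase, in 99.0% and 89.1% (1.46-fold). The receptor gene Ptger2 had shares of 48.6% and 15.8% and an entry for cluster 7 alone. Ptges, which makes prostaglandin E2 from the cyclooxygenase product, went the other way, with 71.3% and 80.0% and an average 1.48 times lower. Ptgir, the prostacyclin receptor, was no member of the list and was named after its values were seen, at 77.0% and 53.6%.

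Cytokine signalling other than Il11 showed receptors and ligands on both sides. Of 7 interleukin 6 family genes in the FGF2 table, Il11 was the 1 listed for cluster 7, and the receptor genes Il11ra1 and Il6st and the mediator Stat3 had no entry there, with recovered library shares of 37.8%, 56.6% and 61.5%. Of 13 other cytokine genes, 4 were higher and 1 lower. Csf2rb, the common beta chain of the receptors for GM-CSF and interleukin 3, was found in 38.5% of cluster 7 and 5.10% of the other cells. Apart from cluster 7 it was listed only for cluster 14 (30.8%) and the mast cell-like cluster 15 (39.1%). Il1r1, an interleukin 1 receptor, was found in 82.4% and 50%, and Csf1, the macrophage growth factor, in 87.6% and 65.5%. Kitl, the ligand of KIT, was the lower one, with 44.4% and 63.2%.

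Chemokines were split. Of 12 genes, 4 were higher and 3 lower. Cxcl14 was found in 53.5% of cluster 7 and 18.8% of the other cells (2.02-fold), and was listed higher elsewhere only for cluster 8 (41.7%). Ccl8, which attracts monocytes, was found in 78.6% and 50.4%, and its recovered level over the library was 2.42 in cluster 8 and 1.83 in cluster 7. The chemokine receptor gene Ccr1 had shares of 51.1% and 17.7%, and its other entry was for cluster 14, at 52.3%. Ccl2 was on the other side, with 63.6% against 69.6% and an average 1.59 times lower, as were Cxcl12 (36.5% and 44.8%) and Ccl7 (78.0% and 78.9%). Ccr1 and Csf2rb are known from leukocytes. Ptprc, which marks all leukocytes, was listed for cluster 14 alone and had no entry for cluster 7 or for the mast cell-like cluster 15. Its missing entry is therefore no reading of leukocytes in cluster 7. Further genes known from leukocytes were outside the lists and were named after their values were seen. Cd53, a leukocyte tetraspanin, was found in 25.9% of cluster 7 and 6.30% of the other cells, and its other entries were for clusters 14 (53.8%) and 15 (31.2%). Mcpt8, a granule protease gene, was found in 44.9% and 25.8%, was also listed higher in clusters 1 and 5, and was lower in the mast cell-like cluster 15 (4.70%). The part of leukocyte RNA in these entries was not tested.

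Growth factors that act on neighbouring cells included more higher than lower genes. Of 15 paracrine growth factor genes, 5 were higher and 2 lower. Hgf, the hepatocyte growth factor, was found in 85.8% and 48.4% of the cells, and clusters 7 and 1 had recovered levels of 1.73 and 1.71, which did not separate them. Angptl2 (1.89-fold), Inhba (1.53-fold), Angptl4 (1.48-fold) and Gdf10 (1.45-fold) were the other higher ones, and Angptl4 and Gdf10 were listed higher in no other cluster. Grem1, an inhibitor of BMP, was 1.65 times lower and the growth factor gene Mdk 1.41 times lower. Fgf7, which acts on epithelial FGF receptors, was found in 97.1% and 77.4%, with a recovered level of 1.42 that lay below that of cluster 5, 1.76.

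Of the 5 genes of the EGF receptor list, 2 were higher, 2 lower and Btc was not listed. Ereg, an EGF receptor ligand, was found in 95.6% of cluster 7 and 65.6% of the other cells (2.74-fold), and its recovered level of 2.48 was followed by 1.57 in cluster 1. Errfi1, a feedback inhibitor of the receptor, was 1.64-fold higher. The ligands Hbegf (28.1% and 40.1%) and Areg (27.1% and 35.0%) were lower, with cluster 0 the highest entry for Hbegf (56.5%) and cluster 3 for Areg (64.2%). Of the 11 FGF and ERK feedback genes, Ccnd1 was the 1 listed, 1.70 times lower (58.2% and 67.7%), and Dusp6, Etv4 and Fosl1 had no entry for cluster 7. That was 9.09% listed lower, on 1 gene, beside a background of 4.32%.

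Transcription factors included some immediate early genes of the NR4A and EGR families. Of 21 immediate early and AP-1 genes, 3 were higher and 2 lower. Nr4a1, an orphan nuclear receptor, was found in 85.6% and 40.1% of the cells, Egr2, a zinc finger factor, in 67.0% and 22.0%, and Nr4a3 in 33.8% and 6.60%. Nr4a3 had no other entry, while Nr4a1 was also higher in clusters 1 and 5. Klf4 (26.9% and 47.9%) and Klf6 (38.2% and 52.7%) were lower, and Fos, Fosb, Jun and Junb had no entry. Of the NR4A and EGR families, Nr4a2, Egr1 and Egr3 also had no entry, with recovered library shares of 33.6%, 58.8% and 16.5%. Twist2, a mesenchymal factor, was 2.20-fold higher (96.6% and 68.1%), above clusters 1 (90.7%) and 5 (80.4%).

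Matrix genes were higher in 7 and lower in 1 of 35 members in the FGF2 table. That was 20% and 2.86%, beside a background of 5.79% and 4.32%. Mgp, which inhibits calcification, was found in 76.2% and 57.6% of the cells (2.05-fold), far below cluster 8, whose recovered level was 6.46 against 1.93 in cluster 7. Thbs2, Spp1, Thbs1, Tnc, Fn1 and Vcan were between 1.29-fold and 1.63-fold higher. Col8a1, a short-chain collagen, was the lower one, with 16.6% and 40.6%. None of the fibrillar collagen genes Col1a1, Col1a2 and Col3a1 was listed for cluster 7. Of 4 small proteoglycan genes, Dcn (2.15-fold) and Bgn (1.34-fold) were higher, and of 12 basement membrane genes, the collagen IV chain genes Col4a1 (1.54-fold) and Col4a2 (1.33-fold). Col6a6, a collagen VI chain gene, was in none of these lists and was named after its values were seen, at 65.6% and 30% (1.59-fold).

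Protease inhibitors were higher in 4 of 15 members and lower in none, beside a background of 5.79% listed higher and 4.32% lower. They were Slpi, Timp1, Pi15 and Timp3 (65.9% and 44.0%). Of 18 protease genes, 2 were higher, Mmp19 (1.39-fold) and the gelatinase gene Mmp2 (1.34-fold), and 4 were lower. Mmp13, a collagenase, was found in 29.9% of cluster 7 and 41.3% of the other cells, and Plau, which activates plasminogen, in 20.1% and 36.7%. The cathepsin gene Ctsl was in nearly all cells of both groups (99.8% and 99.1%) and had an average 1.56 times lower.

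Genes of the unfolded protein and secretory stress list were higher in 4 of 10 members and lower in none. The background was 5.79% listed higher and 4.32% lower. Hspa5, the main chaperone of the endoplasmic reticulum, was found in 99.5% and 92.1% of the cells (1.53-fold), Calr in 97.4% and 87.8% (1.40-fold), Manf in 93.1% and 81.0% (1.31-fold) and Hsp90b1 in 99.5% and 95.8% (1.31-fold). Calr, Manf and Hsp90b1 were listed higher in no other FGF2 cluster, and Hspa5 also in cluster 5. Xbp1, Pdia3, Pdia4, Pdia6, Dnajb9 and Asns had no entry.

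**Figure D3:**
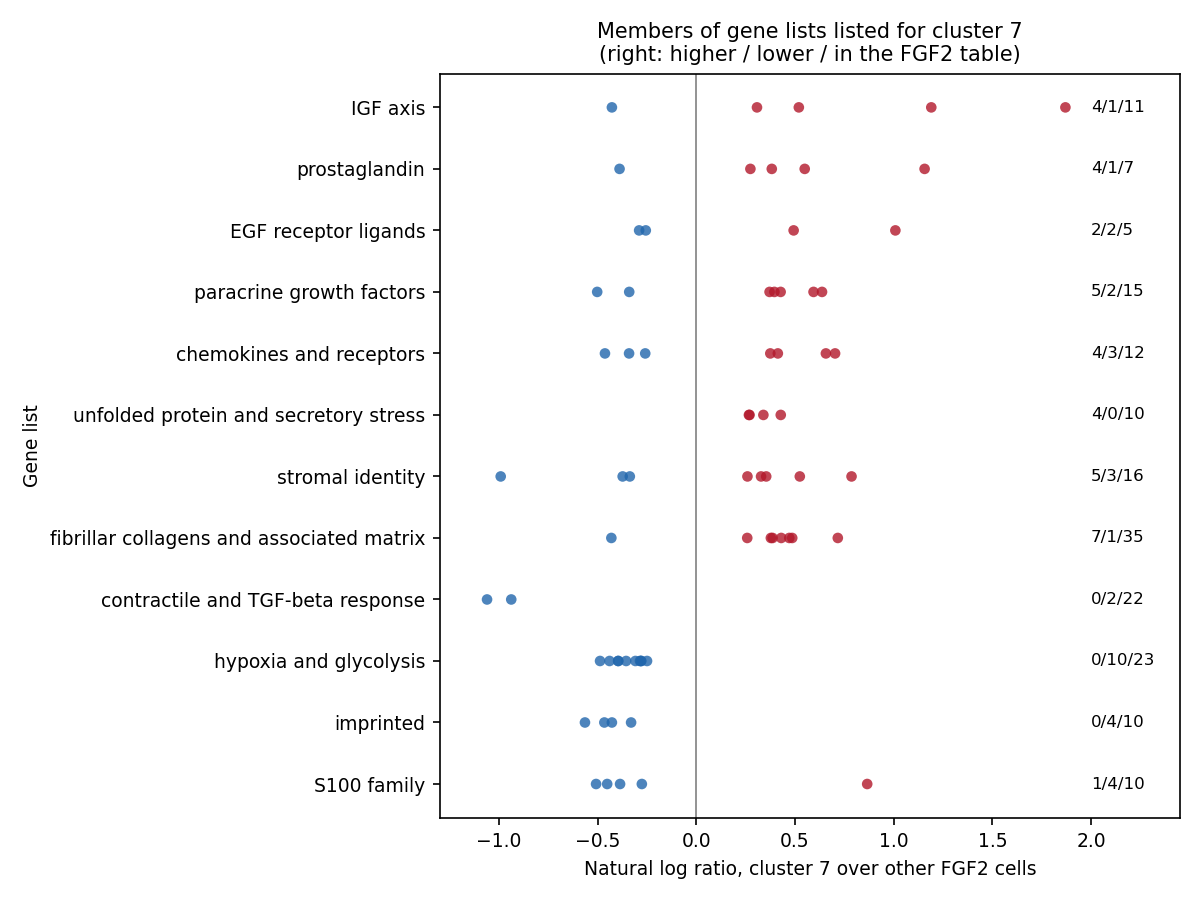
Natural log ratio of cluster 7 over the other FGF2 cells (horizontal axis) for each listed member of 12 gene lists (vertical axis), 1 point per gene, with the numbers higher, lower and present in the FGF2 table at the right. Listed prostaglandin and unfolded protein members lie mostly or wholly on the positive side, and the 10 listed hypoxia and glycolysis members all on the negative side.

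The genes lower in cluster 7 were led by Acta2, Vim and Tagln, followed by Sox4, Sparcl1, Cavin2 and Anxa1, which were between 1.98 and 2.13 times lower. Acta2, the smooth muscle actin, had an average 2.89 times lower, yet its shares were 27.9% and 32.2%. The recovered level of Acta2 was 0.360 in cluster 7, between 0.291 and 0.432 in clusters 0, 1, 2, 3 and 5, and 4.60, 4.43 and 8.49 in clusters 4, 11 and 13. Clusters 6, 8, 9, 10, 12, 14 and 16 had no entry for Acta2 and a pooled level of 0.747, above that of cluster 7. Tagln, an actin-binding protein of smooth muscle, was 2.56 times lower (34.6% and 39.5%) with the same clusters 4, 11 and 13 listed higher. The general actin genes Actb and Actg1 and the actin-binding peptide gene Tmsb4x were 1.88, 1.72 and 1.96 times lower, each in over 97% of cells of cluster 7. Vim had a recovered level of 0.386 in cluster 7, below the 0.444 of cluster 5 and the 0.622 of cluster 1. Of 22 contractile and TGF-beta response genes, Acta2 and Tagln were the listed ones, both lower. That was 9.09%, beside a background of 4.32% listed lower.

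Hypoxia and glycolysis genes were lower in 10 of 23 members and higher in none, beside a background of 4.32% listed lower. Bnip3, a mitophagy receptor induced by low oxygen, was 1.63 times lower (51.9% and 64.4%), the glycolytic enzyme gene Pgk1 1.55 times and Adm, a vasodilator peptide, 1.49 times (21.4% and 41.2%). Pkm, Tpi1 and Eno1 were 1.32, 1.33 and 1.28 times lower while found in slightly more cells of cluster 7 than of the others. Pgk1 (95.4% and 91.8%), Mif, Fam162a and Ero1l also had the larger share in cluster 7. Only Bnip3, Adm and Egln3 were lower there in share as well. The other cells include cluster 3, in which all 10 were listed higher, Pgk1 at a recovered level of 2.40 against 0.658 in cluster 7. The level of Pgk1 in clusters 0, 1 and 8 was 0.708, 0.740 and 0.766, nearer to that of cluster 7.

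Smaller groups held further genes of both directions. Of 10 imprinted genes, 4 were lower, H19 (1.76 times), Dlk1 (39.2% and 54.3%), Igf2 and Grb10 (45.8% and 62.0%). Of 10 S100 genes, S100b was higher, with 75.0% against 36.8% of the cells and no other cluster listed higher, and 4 were lower. S100b is known from Schwann cells. The Schwann cell marker Sox10 had no entry for cluster 7, which does not give its share there, and a part of Schwann cell RNA was not tested. Cdkn2a, a cell cycle inhibitor, was found in 41.9% and 62.8%, and Dkk2, a Wnt antagonist, in 7.50% and 29.4%. By difference of shares the lower genes were led by Dpysl3, a cytoskeletal regulator (28.4% and 54.9%), Nsg1 (33.0% and 58.1%) and Col8a1. The ornithine decarboxylase gene Odc1 and the spermidine acetyltransferase gene Sat1 were 1.52-fold and 1.56-fold higher.

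The remaining lists are given by their counts, beside a background of 5.79% listed higher and 4.32% lower. A count of 1 or 2 genes in a short list is no result about the list. Adhesion genes were higher in 4 and lower in 1 of 15, the higher ones being Alcam, Sdc1, Sdc4 and Itgb5. Antioxidant genes were higher in 3 (Sod2, Prdx5 and Gclc) and lower in 2 of 17, polyamine and nucleotide genes higher in 3 of 5, and NF-kappaB targets higher in 2 of 6. The stromal identity list had 5 higher and 3 lower genes of 16, the lower ones being Vim, Osr1 and Ly6a. Of 20 cell cycle genes, Tubb5 and Stmn1, both of the microtubule system, were lower, and of 10 cell cycle inhibitors and p53 targets, Cdkn2a and Mdm2. BMP and Id genes had 1 higher (Id2) and 2 lower of 9, Wnt genes 1 higher (Fzd1) and 1 lower of 7, and lipid genes 1 and 1 of 10. Neuropeptide genes had 2 higher (Cck and Tac1) and 1 lower (Stmn2) of 4, and secreted defence genes 1 and 1 of 11. Cemip, which degrades hyaluronan, was the lower 1 of 2 hyaluronan genes, and Fgf7 the higher 1 of 4 FGF ligand and receptor genes. None of 5 complement, 9 interferon response, 4 skeletal-type and 6 keratin genes was listed for cluster 7.

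Of the 177 higher genes, 54 were listed higher in no other FGF2 cluster, and 13 of them had no entry in any other cluster. S100b, Pla2g4a, Slit2, Pold4 and Igf1r had the largest folds of the 54, from 2.38 to 1.68. Slit2 and Slit3, secreted guidance proteins, were found in 78.3% and 82.1% of cluster 7 and 42.7% and 54.7% of the other cells. Kcnk10, a potassium channel gene, was sparse outside the cluster, with 38.7% against 6.50%, as was Snap25, a gene of vesicle fusion, with 37.8% against 11.9%. Like Nr4a3, Ptger2, Csf2rb and Cd53, they lay below 25.1% in the other cells and were listed only through their cluster 7 share. Their sparsity elsewhere and their few entries can follow from that limit. Of the 132 lower genes, 9 were listed lower in no other cluster, among them Tle5 and Lmcd1. A gene without an entry can still be expressed at an even or low level. The like counts for the other clusters and for all listed genes were not computed. The counts of 54, 13 and 9 therefore do not show whether cluster 7 is unusual.

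The same genes behaved differently across the other 16 FGF2 clusters. Their comparisons share cells, since cluster 7 is part of the other cells of each, so the counts only describe. Cluster 5 listed 64 of the 177 higher genes as higher and 9 as lower, which was 36.2% of the higher genes of each cluster, as both have 177. Cluster 1 listed 39 higher and 5 lower, 22.0% of those of cluster 7 and 52.0% of its own 75. Cluster 8 listed 32 higher and 14 lower, 18.1% of those of cluster 7 and 28.8% of its own 111. The small cluster 12 listed 9 higher and 1 lower, which was 60% of its own 15 higher genes. Clusters 6 and 9 listed none higher, with 22 and 18 lower, and cluster 0 listed 2 higher and 59 lower. Of the 3058 genes of the library, clusters 6, 9 and 0 list 57, 228 and 58 as higher in all. The absence of overlap thus says less for the short list of cluster 6 than for that of cluster 9. The counts of lower entries were largest in clusters 13 (112), 15 (111) and 16 (102), which have long lists of lower genes.

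**Figure D4:**
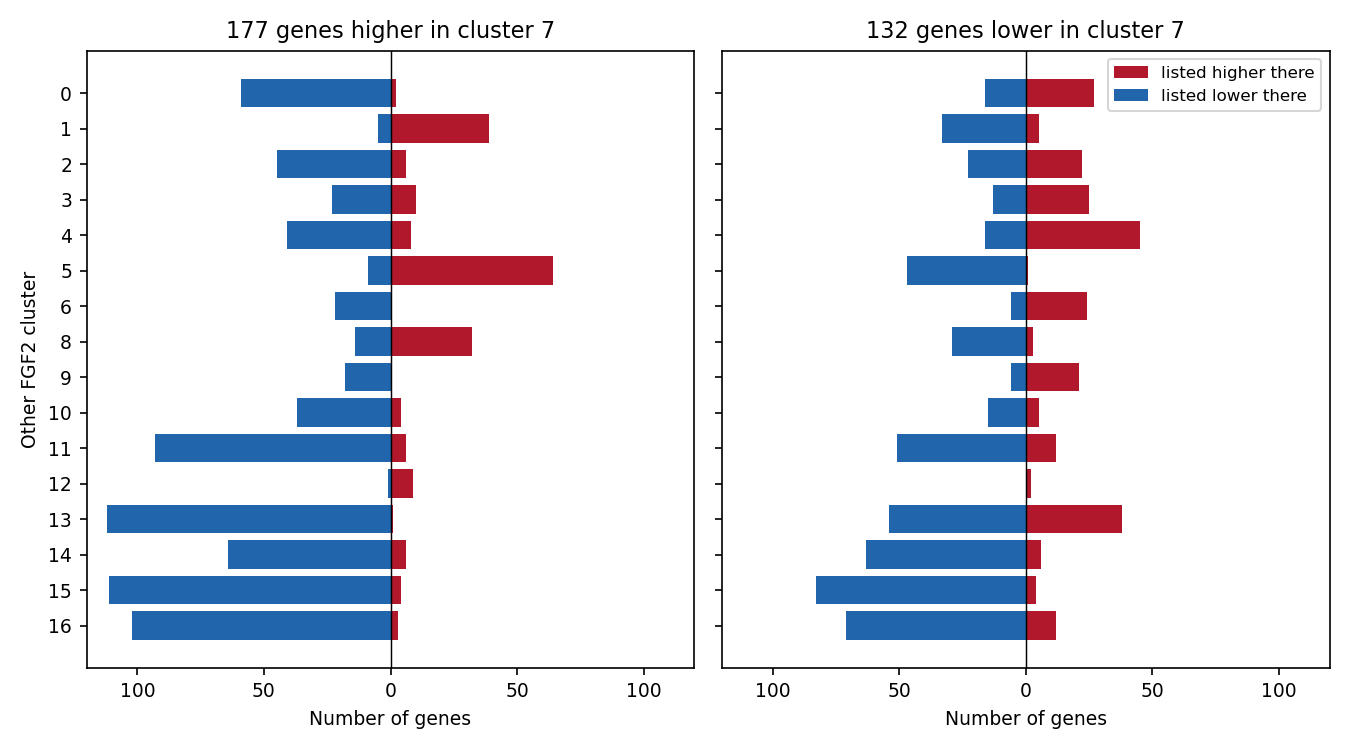
Number of genes (horizontal axis) that each other FGF2 cluster (vertical axis) lists as higher (to the right) or lower (to the left), for the 177 genes higher and the 132 genes lower in cluster 7. Clusters 5, 1 and 8 list 64, 39 and 32 of the higher genes as higher, while clusters 6 and 9, with 57 and 228 higher genes in all, list none.

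Of the 132 lower genes, cluster 5 listed 47 lower and 1 higher, cluster 1 listed 33 and 5, and cluster 8 listed 29 and 3. Those clusters list 117, 69 and 74 genes as lower in all. Cluster 4, which lists Acta2 and Tagln higher, listed 16 lower and 45 higher, of 163 and 197 in all. In all, 105 of the 132 were listed higher in at least 1 of the 10 other stromal clusters (0 to 6, 8, 9 and 12, counted as stromal), and 88 were listed lower in at least 1. The like counts over all 3058 listed genes were not computed, so 105 and 88 are no result about these genes. In 65 of the 112 that had an entry in another stromal cluster, the recovered level in cluster 7 was the lowest of the entries. All were listed for being lower in cluster 7, and clusters without an entry were left out. Where the other stromal entries were all higher, the level could not come out otherwise. The count therefore does not measure how distinct cluster 7 is.

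Clusters 1, 5 and 8 listed the largest numbers of these higher genes, and clusters 1 and 5 overlapped. Of the 39 genes that cluster 1 listed higher, cluster 5 also listed 23, among them Slpi, Trf, Sod3, Twist2, Dcn and Nr4a1. Clusters 1 and 8 had 3 in common and clusters 5 and 8 had 4. The following genes were picked after their values were seen. Igfbp5, Stc1, Pi15 and Ptgs2 were listed higher in clusters 5 and 7, with the level of cluster 7 over that of cluster 5 at 1.37, 1.20, 1.23 and 1.93. Il11, Ereg and Hgf were listed higher in clusters 1 and 7, with the level of cluster 7 over that of cluster 1 at 2.53, 1.58 and 1.01. Mgp, Pla1a, Timp1, Slc29a1 and Cxcl14 were listed higher in clusters 7 and 8, with the level of cluster 7 over that of cluster 8 at 0.298, 0.909, 1.44, 1.77 and 1.47. Cluster 5 was on the opposite side for Timp1 (0.357) and Mgp (0.242), and cluster 8 for Igfbp5 (0.395) and Stc1 (0.712). With 1 library, none of these differences has a replicate check.

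In 139 of the 177 higher genes the share in cluster 7 was above that of every other cluster with an entry, and in 103 the recovered level was. Both counts include the 13 genes listed for no other cluster. Among the 164 genes with an entry elsewhere the counts were 126 and 90. All 177 were listed for being higher in cluster 7, and clusters without an entry were left out. For the 54 genes listed higher in no other cluster, the level could not come out otherwise. The counts therefore do not measure how distinct cluster 7 is. Genes whose level was higher elsewhere included Mgp and Ccl8 in cluster 8, and Gpm6b, Dcn and Nr4a1 in cluster 5.

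**Figure D5:**
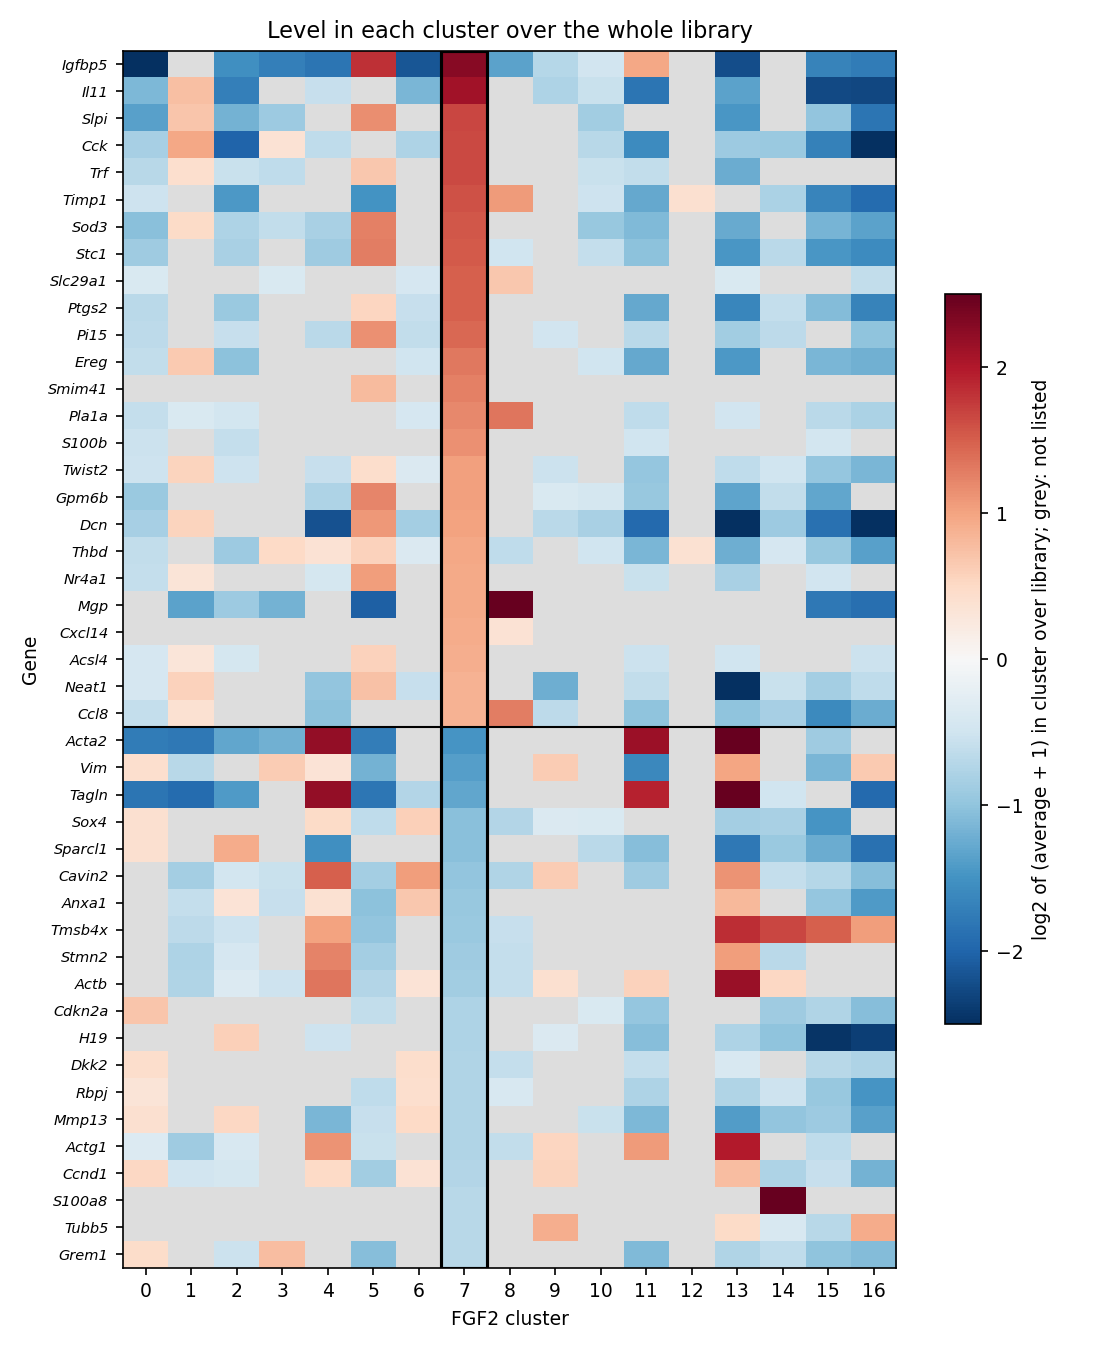
Log2 of the recovered level over the whole FGF2 library (colour, average plus 1 in the cluster over that in all cells) for the 25 genes most higher and the 20 most lower in cluster 7 (rows) in the 17 FGF2 clusters (columns), with grey where a cluster has no entry. The boxed column of cluster 7 is positive for the upper 25 genes and negative for the lower 20, and clusters 1, 5 and 8 are positive for different subsets of the upper genes.

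By pattern over clusters, 8 of 339 genes with an entry in at least 5 clusters in common with Il11 had the same rank order of log ratios, a Spearman rho of 1. Prdx5, a peroxiredoxin, did so over 7 clusters, and Fosl1, Fstl1, Hmox1, Hsph1, Scpep1, Sipa1l1 and Tnfaip2 over 5. Over 9 clusters Odc1 reached 0.97. The clusters share cells and depth, and with so few of them an equal order is a weak description.

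Values of the control library are given side by side and without a test. Il11 was found in a recovered 11.8% of all control cells, and its highest share in the authors' deposited table was 39.3%, in control cluster 6. Igfbp5 was found in 14.9% of the control cells, with entries for control clusters 1 (30.5%) and 13 (80.8%). Slpi, Cck, Sod3, Hgf and Nr4a1 were not listed for any control cluster. Their control shares are therefore unknown, and a missing entry does not show absence from the control library. Trf was found in a recovered 4.64%, Ereg in 13.1%, Twist2 in 31.6% and Ptgs2 in 31.7% of the control cells. Over the whole FGF2 library, the like measure, the recovered shares of these genes were 39.0%, 67.4%, 69.8% and 71.5%. Those of Il11 and Igfbp5 were 77.5% and 44.1%. Shares in cluster 7 alone are no like measure, since the genes were listed for being high there.

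Not all higher genes were rarer in the control library. Of the 177, 135 had a recovered control share, with a median of 61.1% against 62.1% over the whole FGF2 library and 86.3% in cluster 7. In 32 of them the FGF2 library share was at least 1.5 times the control share and in 9 the reverse held, beside 7.46% and 15.1% of the 2318 genes compared. Of 119 lower genes with a control share, 15 were higher in the FGF2 library and 4 lower by the same rule. For Timp1 (82.3%), Thbs2 (83.3%) and Pdgfrb (82.0%) the control share was already high.

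In the table of both libraries after integration, whose values are batch-integrated and are not expression, Igfbp5, Il11 and Slpi were all listed higher for integrated cluster 1, which held 16.5% of the cells. The folds of the authors' deposited table there were 7.67, 4.85 and 4.91, and the shares 77.1%, 94.8% and 66.3%. Which FGF2 cells make up that cluster was not analysed here.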

How the data were processed

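Single-cell RNA was measured in 1 control and 1 FGF2 library. Cell Ranger 4.0 and build mm10 are named, per the submitters' processing notes; for cell filters, doublets, normalization, clustering and test, the sources used here give nothing. The deposited tables hold, per the file headers, a log ratio of averages, read as the natural log, for each cluster against all other cells. They also hold the fraction of cells with a value above 0 in both groups, printed as percentages, and the authors' p-values over single cells, left out here since cells of 1 library are no replicates. The natural log was checked on 5 FGF2 genes with a share of 0 in more than 1 cluster (median coefficient of variation of the average 0.0030%, against 0.0334% with base 2). All entries had a p-value under 0.01 and a log ratio of at least 0.25 in size. The larger of the 2 shares was at least 25.1% in every entry.

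The part of all cells in each cluster was recovered by least squares over 1490 FGF2 genes listed in at least 2 clusters, since the share over all cells is the same whichever cluster it is computed from. The parts summed to 99.95%, and the residual was 0.0242 percentage points. The script was tested on simulated data, built from the fitted parts and the listed shares with rounding but no sampling of cells. This checks the solving alone and not the accuracy of the parts. The level over the library is the fold divided by 1 plus the cluster part times the fold minus 1. A difference in shares between libraries was counted at 1.5-fold, with 0.1 percentage points added and a floor of 0.5%. Named genes were the 25 higher and 20 lower genes with the largest log ratio, the 15 and 10 with the largest difference of shares, up to 20 listed higher for cluster 7 alone, and members of 38 gene lists and 11 marker lists. The members and lists were chosen with earlier results of these data known. Python 3.11.15, pandas 2.3.3 and scipy 1.17.1 were used. Alternatives changed the size of log ratio or share that counts, the p-value, the clusters compared and the least squares.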

Additional observations from a re-analysis of the deposited data

How the results depend on the processing

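With a log ratio of at least 0.5 in size, 46 genes were higher and 20 lower in place of 177 and 132, 5 in place of 54 were listed higher in no other cluster, 35 in place of 139 had their highest share in cluster 7, and the median share difference of higher genes was 28.4 in place of 24.4 percentage points; these smaller counts follow from fewer genes passing. With a share ratio of at least 1.5, 84 were higher and 19 lower. With share and log ratio of the same sign, an alternative chosen after seeing the data, 87 were lower. With the level in place of the share, 103 genes were highest in cluster 7 in place of 139, and against stromal clusters alone 64 genes in place of 54 were higher in no other cluster. Of 20 alternatives, 12 kept counts within 1.5 times the main count or moved a median by less than 1 percentage point, and the cluster's part of the cells was 6.05% under each way of solving for it. No paired analysis was possible because each group had 1 library and no result comes from a test. The depth per cell is unknown, so low shares cannot be told from free RNA.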
